A study of Homo sapiens with 21 samples.

Results

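CDK4, the kinase that works with the D-type cyclins, was silenced with siRNA in irradiated, senescent human fibroblasts, and the transcripts of these cells were set against cells given non-targeting siRNA. The comparison follows the group labels and holds 9 of the 21 libraries of the series: 3 with CDK4 siRNA, 3 with the non-targeting siRNA numbered 3 in the sample titles (NT3) and 3 with number 4 (NT4). The cells were the established human lung fibroblast line IMR90, wild type per the labels. In all 9 libraries the cells had been irradiated, had received their siRNA (5 nM, with the reagent DharmaFECT) on day 4 and again on day 7, and were collected on day 10 for sequencing of poly(A) RNA. A further pair of sets of 3 libraries, from cells handled the same way but given CDK6 siRNA alone or CDK4 and CDK6 siRNA together, supplied a second measure of CDK4 siRNA that shares no library with the first. The labels give the 5 nM dose without saying whether it holds for each siRNA of the pair. The 3 libraries of proliferating IMR90, neither irradiated nor transfected, are quoted for scale only. The design text numbers the controls 1 and 2 where the titles have 3 and 4, and the titles are followed here.

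CDK4 and its close relative CDK6 bind D-type cyclins and phosphorylate the retinoblastoma protein RB, which releases E2F transcription factors and lets cells enter S phase. INK4 inhibitors, such as the product of CDKN2A, block CDK4 and CDK6 directly, whereas the product of CDKN1A acts mainly on CDK2 complexes. In senescent fibroblasts these inhibitors hold the arrest, genes of G2 and mitosis are kept low by the DREAM complex of RB relatives, and the cells secrete cytokines, growth factors and proteases known as the senescence-associated secretory phenotype (SASP).

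Expression is given as the deposited normalised read count, which is the read count of a gene divided by 1 size factor per library. These values are not corrected for gene length, so levels are compared between libraries and never between genes. Between 12892442 and 21822152 reads per library fell in the listed genes. In the 9 libraries all 12 fibroblast markers were expressed, with summed counts of 494165 to 646335 in controls and 615360 to 668681 with CDK4 siRNA. Summed epithelial markers lay at 1781 to 2950 in controls and 2077 to 2392 with CDK4 siRNA, and endothelial markers at 2109 to 3809 and 2282 to 2575. Smooth muscle markers lay at 9879 to 13298 and 10021 to 10688. Summed immune markers were 905 to 1446 in controls and 1521 to 1622 with CDK4 siRNA. This difference came from CD68 (1109 ± 236, SD, n = 6, against 1523 ± 58.6, n = 3), a lysosomal protein, while the pan-leukocyte gene PTPRC stayed under 10 in every library and HLA-DRA was at 0 in all 9. In bulk RNA, fewer cells of a type and less RNA per cell cannot be told apart.

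A gene was tested when its value reached 10 in at least 3 of the 9 libraries, which left 11394 of 16383 genes. The log2 of the value plus 1 was compared with limma, with two-sided p-values adjusted after Benjamini and Hochberg across the 11394 genes and called at 0.05. Against the mean of both controls, 983 genes were higher with CDK4 siRNA (8.63%) and 879 lower (7.71%). A stricter count required the same direction against NT3 alone and against NT4 alone: 239 genes were higher (2.1%) and 304 lower (2.67%). Of these 543 genes, 367 moved by less than 0.5 on the log2 scale, and 5 rose and 19 fell by more than 1. The median log2 fold change of all tested genes was 0.0037. One control library, NT3 A95, stood apart from the other 8: the SD over genes of its log2 deviations from its group mean was 0.331, against 0.174 to 0.226, and ribosomal protein genes took 4.05% of its reads, against 2.51 to 2.90%. Without A95, 926 genes were called against each control, and 490 of the 543 were among them. Without the CDK4 siRNA library A97, 310 were called. Against the mean of controls, leaving out A97 gave 1067 genes and leaving out A109 gave 1180.

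The knockdown itself was deep. CDK4 (ENSG00000135446, chr12:57747727-57752310, GRCh38) had normalised counts of 1334, 1158 and 1166 in the NT3 libraries and 1223, 1356 and 1249.6 in the NT4 libraries. With CDK4 siRNA its counts were 105.6, 109.9 and 108.9. The 3 silenced libraries lay far below all 6 controls, at 8.67% of the control mean. The fold change on the log2(value + 1) scale was -3.51 ± 0.06 (SE, limma adjusted p = 8.68e-21), and the exact two-sided permutation test over 84 splits gave p = 0.0119, the smallest it can give. Proliferating cells held 2160 to 2219, so the senescent controls were already below them. TSPAN31, which shares 2493 bases of the same locus with CDK4, had 388 ± 27.1 (n = 6) in controls and 420 ± 39.0 (n = 3) after CDK4 siRNA (log2 fold change 0.11, adjusted p = 0.317). Whether reads were counted by strand is not given in the sources used here.

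Of the other genes of the cyclin D and CDK4/6 module, 1 was called against each control. By this rule 2.67% of all tested genes were lower and 2.1% higher. CCND2, which encodes cyclin D2, had counts of 3615, 3608 and 3314 in NT3, 3889, 4117 and 4240 in NT4, and 2712, 2876 and 2762 with CDK4 siRNA. All 3 knockdown values were below every control, and CCND2 fell by 0.44 ± 0.05 on the log2 scale (limma adjusted p = 4.26e-06), to 73.3% of controls. CDK6, the kinase closest to CDK4, had 4706 ± 655 in controls (n = 6) and 5961 ± 692 with CDK4 siRNA (n = 3). CDK6 was higher against the mean of controls (log2 fold change 0.35, adjusted p = 0.00464) and against NT4 (0.45, adjusted p = 0.00213), but the NT3 library at 5689 lay above 1 of the 3 knockdown values and the test against NT3 did not pass (0.24, adjusted p = 0.0604). CCND1, cyclin D1, differed between the controls themselves, with 25615 to 36692 in NT3 and 44546 to 48813 in NT4, against 45723 to 49482 with CDK4 siRNA. Its log2 difference was therefore 0.58 against NT3 (adjusted p = 1.07e-04) and 0.04 against NT4 (adjusted p = 0.853). CCND3, cyclin D3, had 2143 ± 219 in controls and 2149 ± 58.9 with CDK4 siRNA, and did not pass either test.

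Among the CDK inhibitors 1 of 6 tested genes was called against each control, and it was lower. Over all tested genes 2.67% were lower and 2.1% higher by this rule. CDKN1A, the p53 target that encodes p21, had 28356 to 30843 in NT3, 28151 to 29924 in NT4, and 20633, 20978 and 21009 with CDK4 siRNA. The knockdown values were closely grouped and lay below all controls. CDKN1A fell by 0.49 ± 0.04 on the log2 scale (limma adjusted p = 6.34e-08), to 71.1% of controls, and the drop was 0.49 against each control alone. It remained far above the 4963 to 5060 of proliferating cells. The INK4 inhibitors did not pass the test. CDKN2A had 219 ± 21.9 in controls and 191 ± 18.7 with CDK4 siRNA (log2 difference -0.20, adjusted p = 0.207), and CDKN2B had 479 ± 17.2 and 478 ± 46.4 (-0.01, adjusted p = 0.969). The 2 genes are neighbours in the INK4 locus (CDKN2A at chr9:21967752-21995324, CDKN2B at chr9:22002903-22009313), and how reads from similar sequence were assigned is not given in the sources used here. CDKN2C, at 77.9 ± 7.82 and 98.3 ± 15.95, and CDKN2D, at 106.9 ± 14.4 and 143 ± 14.9, had log2 differences of 0.32 (adjusted p = 0.196) and 0.42 (adjusted p = 0.0563). CDKN1B, which encodes p27, had 423 ± 47.6 in controls and 509.6 ± 8.95 with CDK4 siRNA. All 3 of its knockdown values were above all controls, but the test did not pass (0.27, adjusted p = 0.0587). CDKN1C had too few reads to be tested.

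CDK2, the kinase that acts after CDK4 at the entry into S phase, fell as well. Its counts were 1147, 1161 and 1199 in NT3, 896, 955 and 907 in NT4, and 497, 502 and 513 with CDK4 siRNA. The 3 groups did not overlap, and NT4 itself sat below NT3. CDK2 fell by 1.04 ± 0.07 on the log2 scale (adjusted p = 4.70e-10), to 48.3% of controls, by 1.21 against NT3 and by 0.87 against NT4. In the libraries with CDK6 siRNA alone the counts were 482, 497 and 475, and with both siRNAs 264, 252 and 328, so the log2 difference made by CDK4 siRNA was -0.79 there (adjusted p = 2.43e-07). The 5 other tested genes of cyclin E, CDK2 and CDC25A function did not pass against the mean of controls, among them CCNE1 (157 ± 35.3 and 129 ± 20.5) and CDC25A (155 ± 15.3 and 182 ± 25.2). Over all tested genes 8.63% were higher and 7.71% lower by that test. Next to CDK2 on chromosome 12, with 120 bases between the annotated genes, lies PMEL, a melanosome matrix protein, which moved the other way. PMEL had 38.9 to 70.2 in the 6 controls and 98.1, 109.9 and 121 with CDK4 siRNA, without overlap (log2 fold change 0.94 ± 0.23, adjusted p = 0.00617).

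**Figure D1:**
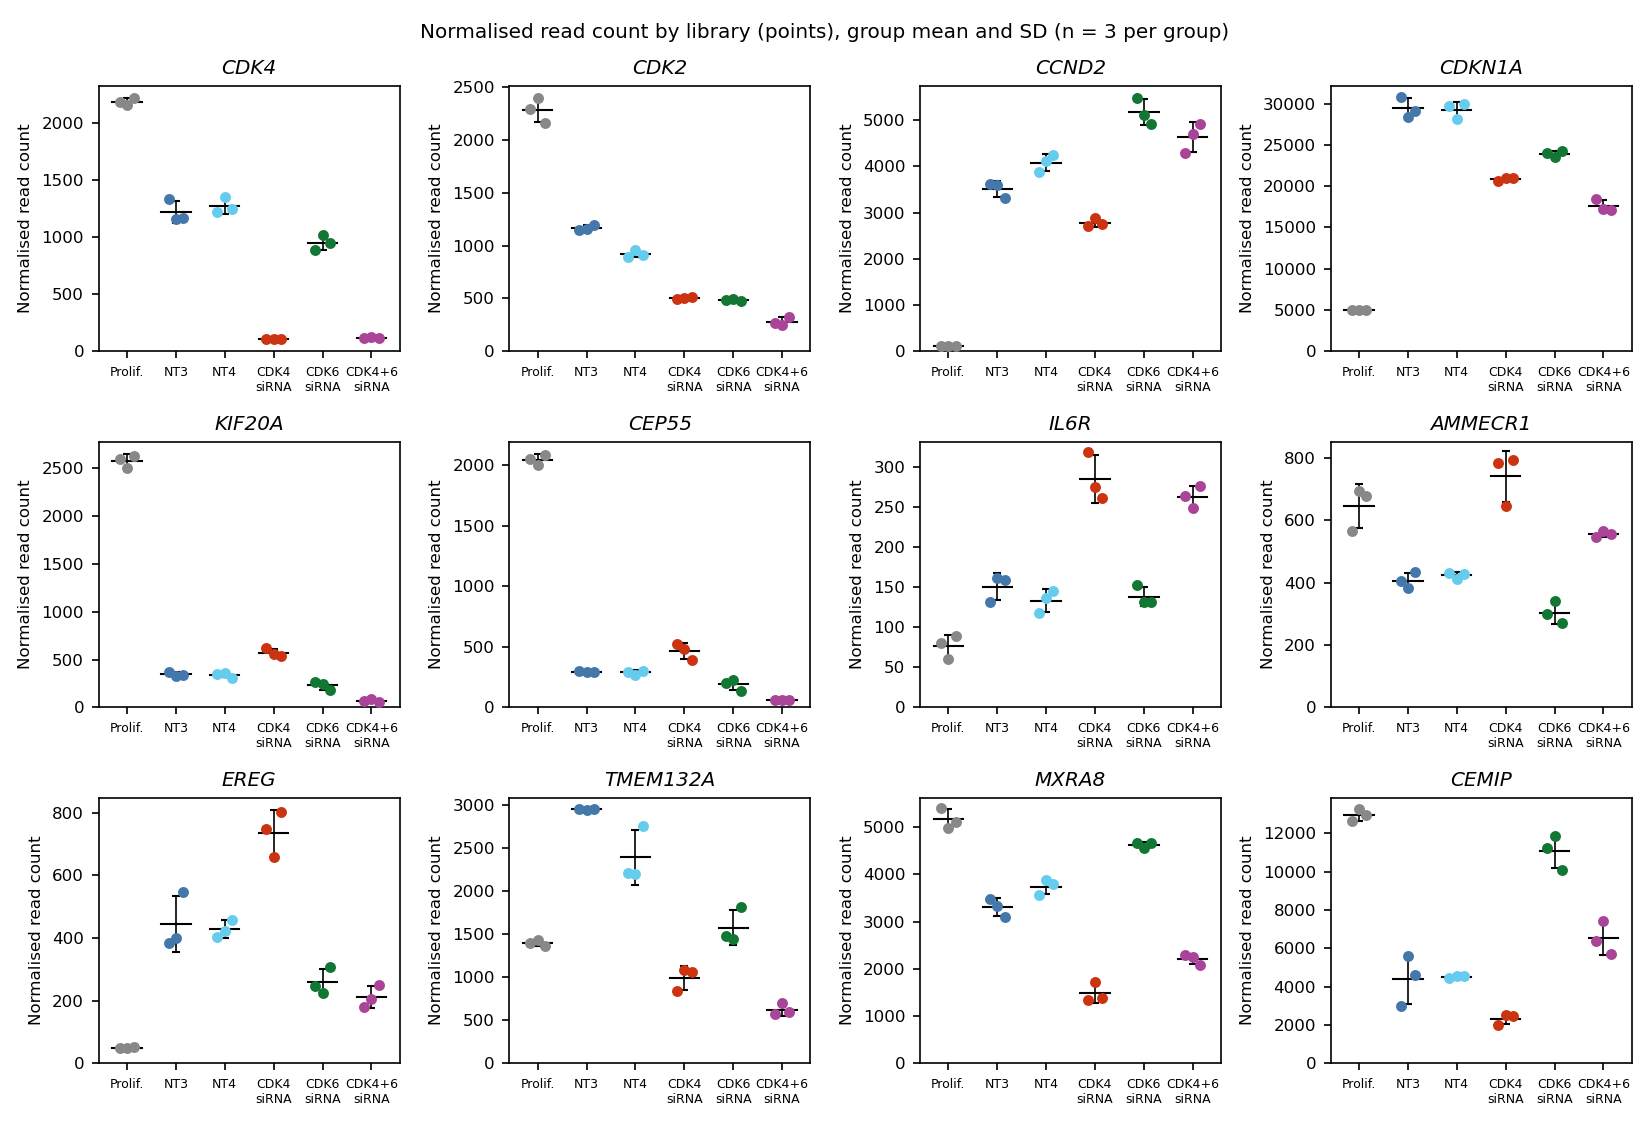
Normalised read count (y axis, from 0) of 12 genes in each library (points) by group (x axis), with the group mean as a line and 1 SD as error bar, n = 3 per group. CDK4 siRNA values of CDK4, CDK2, CCND2, CDKN1A, TMEM132A, MXRA8 and CEMIP lie below both controls, and those of KIF20A, CEP55, IL6R, AMMECR1 and EREG above them.

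Among the RB, E2F and DREAM factors 2 of 18 tested members were called against each control, both lower, where 2.67% of all tested genes were lower and 2.1% higher. The same 2 were the members called against the mean of controls. E2F4, the main E2F of the repressive complex, had 713 to 821 in the 6 controls and 544, 557 and 573 with CDK4 siRNA, and fell by 0.45 ± 0.05 (adjusted p = 3.12e-06). TFDP2, a dimerisation partner of E2F proteins, had 470 to 578 in controls and 370.5, 382 and 392 with CDK4 siRNA, and fell by 0.44 ± 0.07 (adjusted p = 8.01e-05). Neither gene overlapped its controls. RB1 (991 ± 110.5 and 1102 ± 92.6), the RB relatives RBL1 and RBL2, and FOXM1 (516 ± 53.4 and 544.9 ± 20.999), the activator of mitotic genes, did not pass against the mean of controls.

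Genes of G2 and mitosis were raised as a group, the list with the most members called in one direction. Of 65 tested genes, 31 were higher against the mean of controls and 1 lower, where 8.63% and 7.71% of all tested genes were. The log2 fold change was positive for 61 of the 65, with a median of 0.35 (0.32 against NT3 and 0.36 against NT4), beside 0.0037 over all genes. In 33 of the 65 all 3 knockdown libraries lay above all 6 controls, where 5.47% of all tested genes did, and 1 lay below all controls, where 5.8% did. The genes called higher against each control were CCNB1 (the cyclin of mitotic entry), TTK and CENPI (spindle checkpoint and centromere proteins), KIF20A, KIF23 and CEP55 (cytokinesis), MKI67 (the antigen Ki-67), CKAP2, GTSE1 and DEPDC1, which is 10 of 65, beside 2.1% of all genes.

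The size of these rises was moderate, and levels stayed well under those of cycling cells. KIF20A, a mitotic kinesin, had 368, 323 and 341 in NT3, 344, 359 and 310.4 in NT4, and 620, 555 and 537 with CDK4 siRNA. The knockdown values did not overlap the controls and amounted to 167% of their mean (log2 fold change 0.74 ± 0.12, adjusted p = 1.68e-04), whereas proliferating cells had 2499 to 2633. CEP55, which directs abscission, had 268 to 301 in the controls and 521, 481 and 392 with CDK4 siRNA. It rose by 0.66 ± 0.12 (adjusted p = 7.76e-04), again without overlap, and proliferating cells had 1999.5 to 2089.6. TTK, a kinase of the spindle checkpoint, had 81.2 to 113 in controls and 149, 144 and 157 after knockdown (0.65 ± 0.15, adjusted p = 0.00451). CENPI, a centromere protein, had 68.0 to 105.7 in controls and 151, 129.6 and 169.5 after knockdown (0.70 ± 0.14, adjusted p = 0.00159). MKI67 rose from 665 ± 113 (n = 6) to 988 ± 106.4 (n = 3), with 8163 in proliferating cells, by 0.58 ± 0.12 (adjusted p = 0.00225).

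Not every mitotic gene was called higher. CDC25B, a phosphatase that activates mitotic CDKs, had 723 ± 37.9 in controls and 472 ± 75.7 with CDK4 siRNA, and fell by 0.63 ± 0.07 (adjusted p = 4.84e-06), the only list member called lower. CDK1 (203 ± 21.2 and 255 ± 16.5), TOP2A (971 ± 118 and 1159 ± 101.6) and PLK1 (243 ± 29.8 and 301 ± 20.2) had higher means with CDK4 siRNA but did not pass. The kinase AURKA (571 ± 82.0 and 567 ± 12.6) did not pass either. The count of called members depended on single libraries. Median log2 differences of the list from the control mean were 0.27 in A109, 0.41 in A97 and 0.32 in A103, against -0.03 to 0.13 in the 6 controls. Without A97 the list had 11 called members and a median of 0.30, with 3 called against each control, while 20 were called without A109 and 20 without A103. Against each control 6 were called without A109, and likewise without the NT4 libraries A102 or A108. A fit on the 9 libraries alone called 21.

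Many promoters of mitotic genes carry the cell cycle genes homology region, a short element bound by the DREAM complex. Its core TTTGAA was searched on both strands (so that TTCAAA also counts) in the 250 bases before the start of each gene, in RefSeq promoters of GRCh38.p14. It occurred in 29 of the 55 tested G2 and mitosis genes with an entry (52.7%), in 8.59% of the 9213 tested genes with an entry and in 13.6% of all 27305 promoters. The CCAAT box, searched the same way, occurred in 38 of the 55 (69.1%), in 35% of the tested genes and in 33% of all promoters. The 2 motifs can share end bases, and each was counted on its own. Among list members that rose against the mean of controls, 14 of 28 with an entry held TTTGAA (50%) and 20 held CCAAT (71.4%). Of the 9 with an entry among those that rose against each control, 5 held TTTGAA (55.6%) and 7 held CCAAT (77.8%). Of the 10 that rose against each control, TTK had no entry, KIF20A, CENPI, CCNB1 and CKAP2 had no match in this window, and 5 had one. The stretches around the match in these 5 are printed on the strand of the gene, with the match in capitals.
CEP55, chr10:93496469-93496528, + strand: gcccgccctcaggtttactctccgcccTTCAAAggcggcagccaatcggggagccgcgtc
MKI67, chr10:128126424-128126479, - strand: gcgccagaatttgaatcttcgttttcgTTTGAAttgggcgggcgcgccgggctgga
KIF23, chr15:69414267-69414326, + strand: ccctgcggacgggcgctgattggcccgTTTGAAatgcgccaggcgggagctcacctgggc
GTSE1, chr22:46296817-46296869, + strand: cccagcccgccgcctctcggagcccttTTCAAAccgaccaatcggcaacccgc
DEPDC1, chr1:68497083-68497136, - strand: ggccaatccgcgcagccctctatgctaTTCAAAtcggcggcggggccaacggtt
The match began 116 bases before the start in CEP55, 55 in KIF23 and 26 to 29 in GTSE1, DEPDC1 and MKI67, and the MKI67 window held a second copy further from the start. A match describes letters only and does not show that a factor is bound.

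Among S phase genes few single members passed the test. Of 66 tested, 3 were higher and 2 lower against the mean of controls, where 8.63% and 7.71% of all tested genes were. The log2 fold change was positive for 45 of the 66, with a median of 0.09. Whether this list differs from the mitotic list was not tested. UNG, which removes uracil from DNA, was the only member called against each control, beside 2.67% lower and 2.1% higher over all genes: it had 357 to 464 in controls and 288, 279.7 and 313 with CDK4 siRNA, without overlap, and fell by 0.47 ± 0.07 (adjusted p = 3.36e-05). GMNN, the licensing inhibitor geminin, was lower against the mean of controls (171 ± 21.3 and 126 ± 13.6, adjusted p = 0.0375). RRM2, the regulatory subunit of ribonucleotide reductase, was higher (1238 ± 168 and 1576 ± 111.4, log2 fold change 0.36, adjusted p = 0.019), as was FANCI of the Fanconi repair pathway (354 ± 43.0 and 449 ± 61.4, 0.34, adjusted p = 0.0217). The helicase subunit MCM2 (292 ± 17.3 and 253 ± 8.94) and the polymerase clamp PCNA (1022 ± 198 and 1056 ± 90.7) did not pass.

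**Figure D2:**
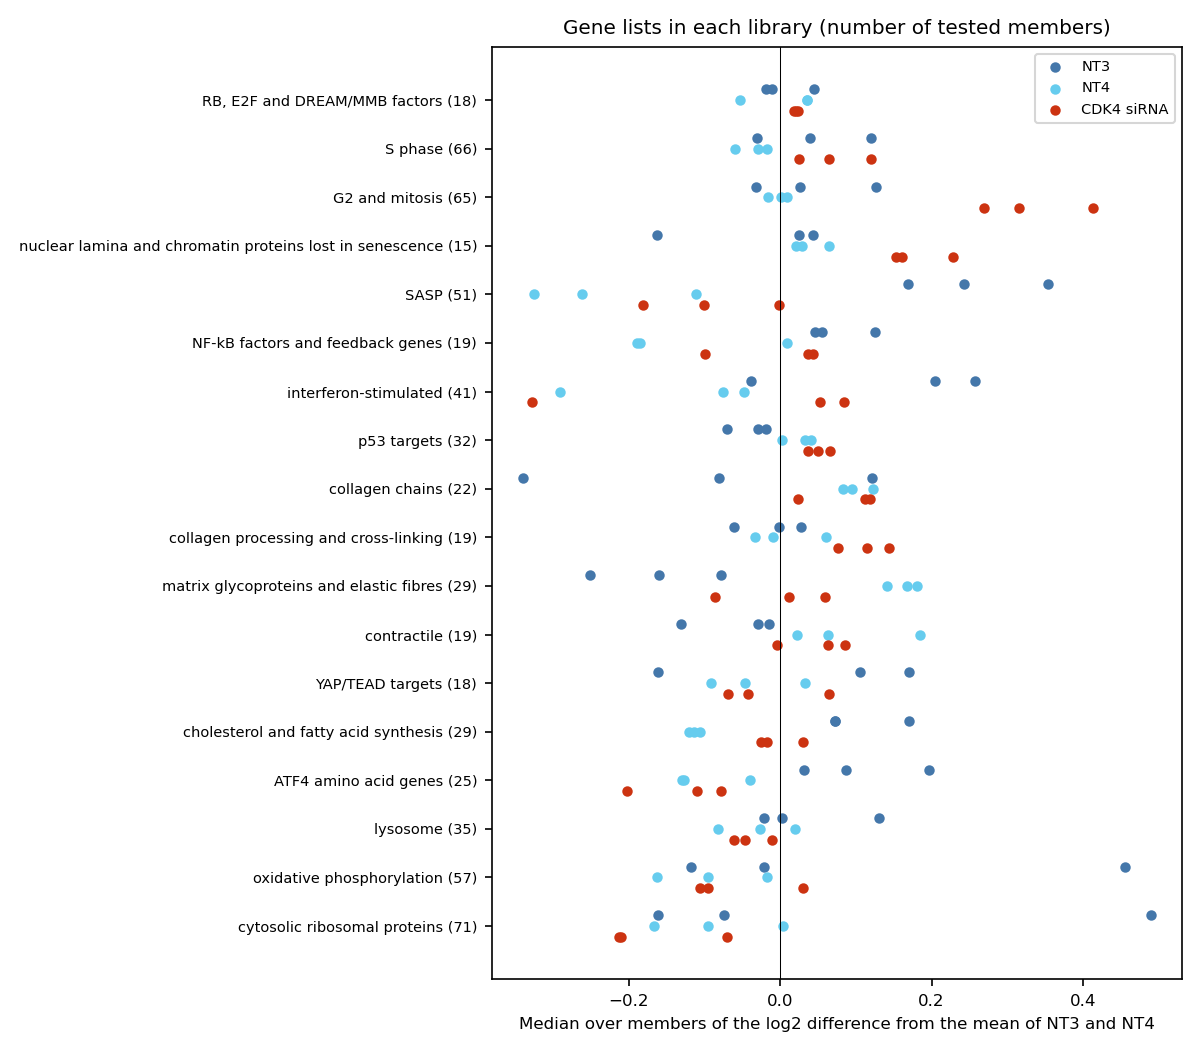
Median log2 difference between a library and the mean of NT3 and NT4, taken over the members of each gene list (x axis), for the 3 NT3, 3 NT4 and 3 CDK4 siRNA libraries (points), with the number of tested members beside each list. The CDK4 siRNA points stand clear of all controls for G2 and mitosis (0.27 to 0.41), while for SASP they lie between NT3 (0.17 to 0.35) and the lower NT4 points, and 1 NT3 library stands apart for ribosomal proteins and oxidative phosphorylation.

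The genes with the largest falls were ranked by their difference from the nearer control, among those without overlap and with a mean of at least 100. CDK4 apart, the 10 highest in that order are given here, and they code for proteins of several kinds. TMEM132A, a transmembrane protein, had 2955, 2939 and 2955 in NT3, 2206, 2201 and 2758 in NT4, and 836, 1083 and 1056 with CDK4 siRNA. It fell to 37.2% of controls, by 1.42 ± 0.10 (adjusted p = 1.12e-09). MXRA8, a cell surface protein used as a receptor by arthritogenic alphaviruses, had 3107 to 3873 in controls and 1351, 1719.5 and 1377 after knockdown (42.1%, -1.25 ± 0.06, adjusted p = 1.52e-11). SV2A, a synaptic vesicle glycoprotein, had 329 to 519 in controls and 188, 169.8 and 188 after knockdown (41.1%, -1.27 ± 0.11, adjusted p = 4.94e-08). The lack of overlap in these and the other ranked genes was a condition of the ranking. TOMM70, an import receptor of the outer mitochondrial membrane, had 1896 to 2109 in controls and 840.4, 916 and 980.2 after knockdown, at 44.6% of controls (adjusted p = 9.82e-12). CEMIP, which serves in the breakdown of hyaluronan, had 3009.6 to 5612 in controls and 1982, 2540 and 2476 after knockdown, at 52.3% (adjusted p = 2.61e-05). The other 5 were FAM234B (-1.10), ARL6 (-1.12), a small GTPase of ciliary transport, AAR2 (-1.11), a spliceosome assembly factor, GOLM1 (-1.04), a Golgi membrane protein, and SSTR1 (-0.93), a somatostatin receptor, all on the log2 scale.

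Rises were ranked in the same way, by the difference from the nearer control and only among genes without overlap. They include PMEL, KIF20A and CEP55, whose values are given above, and ADAMTS2 (0.95 against the mean of controls) stood outside them because it was closer to NT4. IL6R, the interleukin-6 receptor subunit, had 131, 162 and 159.6 in NT3, 117, 137 and 145 in NT4, and 319, 276 and 261 with CDK4 siRNA. It reached 201% of controls (log2 fold change 1.01 ± 0.12, adjusted p = 3.21e-06). AMMECR1 had 382 to 433 in controls and 783, 647 and 795 after knockdown (0.83 ± 0.08, adjusted p = 5.02e-07). EREG, the growth factor epiregulin, had 386 to 548 in controls and 747, 661 and 804 after knockdown (0.76 ± 0.13, adjusted p = 2.62e-04). In all 3 genes each knockdown library exceeded each control, as the ranking required. TXNIP, which binds thioredoxin and limits glucose uptake, had 6672 to 8401 in controls and 12448, 10679 and 12259.8 after knockdown (0.65 ± 0.08, adjusted p = 7.03e-06). HMGA2, an architectural chromatin protein, had 8535 to 11354 in controls and 16725, 14051 and 15335 after knockdown (0.65 ± 0.06, adjusted p = 4.33e-08) and is named as a member of the list of 15 lamina and chromatin genes. Of that list 5 were higher and 0 lower against the mean of controls (8.63% and 7.71% of all genes), and HMGA2 alone was called against each control. The log2 fold change was positive for 12 of the 15. The list's median log2 difference from the control mean was 0.15, 0.16 and 0.23 in the 3 knockdown libraries, above the -0.16 to 0.06 of the 6 controls. CPNE7 (0.81), MFHAS1 (0.77) and the kinase BMP2K (0.72) rose by similar log2 amounts.

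Secretory phenotype genes were called in both directions, and the 2 controls differed in them. Of 51 tested SASP genes, 5 were higher and 6 lower against the mean of controls, beside 8.63% and 7.71% of all genes. Against NT3, 4 were higher and 17 lower with a median log2 fold change of -0.29, where 13.7% of all genes were higher and 12.4% lower. Against NT4, 8 were higher and 1 lower with a median of 0.14, where 5.79% were higher and 6.05% lower. EREG was the only member called in the same direction against each control, where 2.1% of all genes were higher and 2.67% lower. AREG, another EGF receptor ligand, was higher against the mean (259 ± 46.9 and 385 ± 8.37, adjusted p = 0.00383), with all knockdown values above all controls, but not against NT3 alone (adjusted p = 0.056). The chemokine CCL2 had 2021 ± 592 in controls and 1262 ± 156 after knockdown, and was lower against the mean of controls (-0.64, adjusted p = 0.00417) and against NT3, but not against NT4 (adjusted p = 0.197). IL6 had 2245 ± 649 in NT3, 514 ± 147 in NT4 and 867 ± 182 with CDK4 siRNA. The knockdown level of IL6 thus lay between the controls, with log2 differences of -1.36 from NT3 (adjusted p = 7.41e-04) and 0.77 from NT4 (adjusted p = 0.0675). CXCL8, at 5763 ± 799.9, 1941 ± 556 and 3324 ± 535 in the same order, did not pass against either control.

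For 0.895% of the tested genes CDK4 siRNA was called in opposite directions against the 2 controls. IGFBP3, a secreted binder of insulin-like growth factors, had 38064, 33939 and 28397 in NT3, 7833, 7376 and 9319 in NT4, and 10792, 13696 and 13057 with CDK4 siRNA. ANKRD1, a target of YAP, had 682 to 888 in NT3, 154 to 206 in NT4 and 345 to 405 after knockdown. LAMA2, a laminin chain, had 81.3 to 149.7 in NT3, 487 to 653 in NT4 and 272 to 322 after knockdown, and the neuronal pentraxin NPTX1 had 1042 to 1513, 4012 to 4366 and 2071 to 2453. In each of these 4 genes the knockdown libraries lay between the controls without touching either. Between the controls themselves 3223 genes were called, more than the 2969 for CDK4 siRNA against NT3 and the 1349 against NT4. No untransfected irradiated cells were among the libraries analysed here, so which control differs from untreated senescent cells cannot be told apart.

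**Figure D3:**
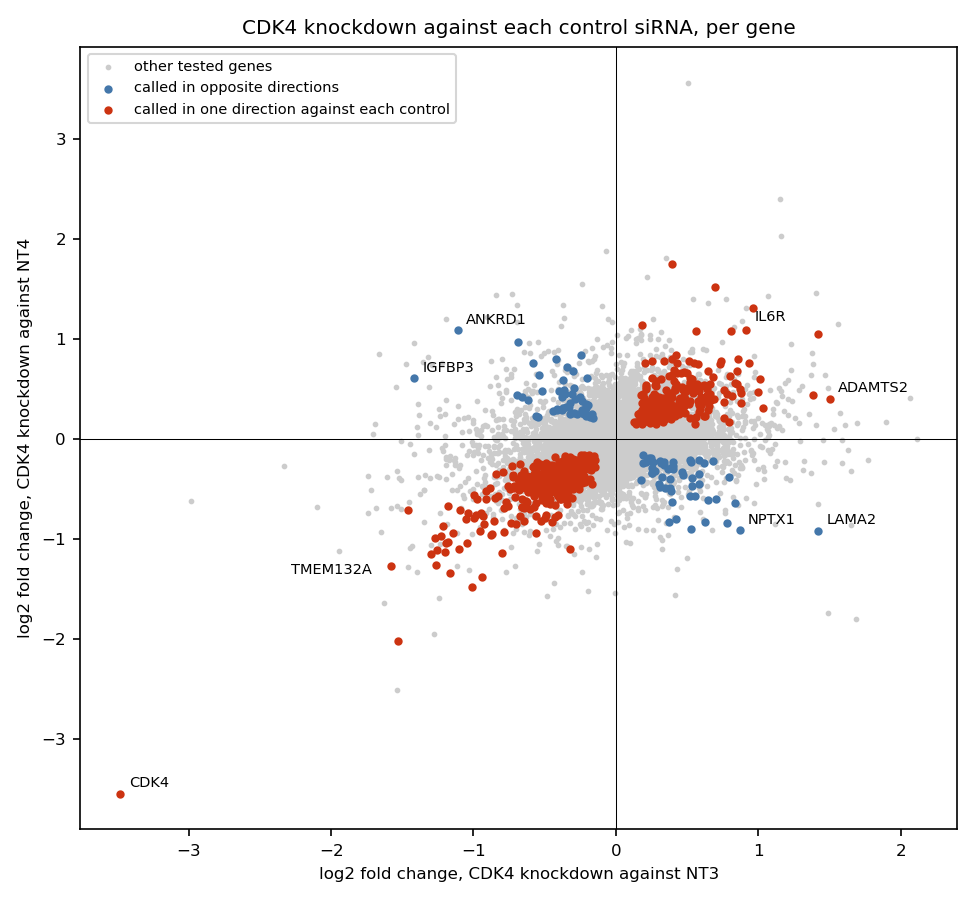
Log2 fold change of each of 11394 tested genes with CDK4 siRNA against NT3 (x axis) and against NT4 (y axis). Red points are the 543 genes called in one direction against each control and blue points those called in opposite directions. Both axes share the CDK4 siRNA libraries, so points along the diagonal are not independent evidence.

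Matrix and contractile genes moved in small numbers and in both directions against the mean of controls, and the balance of several lists differed between the controls. Among enzymes of collagen processing, 3 of 19 were called against each control, all higher, and 7 were higher and 2 lower against the mean. Over all genes 2.1% were higher and 2.67% lower against each control, and 8.63% and 7.71% against the mean. ADAMTS2, which trims procollagen, had 521 to 713 in NT3, 1299 to 1416 in NT4 and 1617 to 1905 with CDK4 siRNA, without overlap (0.95 ± 0.08, adjusted p = 5.05e-08). Most of that rise was against NT3, at 1.503 on the log2 scale, with 0.40 against NT4. The prolyl 4-hydroxylase subunit P4HA2 rose by 0.34 and the prolyl 3-hydroxylase P3H3 by 0.30. Of 29 tested matrix glycoprotein and elastic fibre genes, 5 were higher and 3 lower against the mean. Against NT3, 11 were higher and 3 lower (median 0.16), where 13.7% and 12.4% of all genes were. Against NT4, 1 was higher and 6 were lower (median -0.24), where 5.79% and 6.05% were. In this list POSTN, periostin, rose from 1934 ± 548 to 2983 ± 208 (0.67, adjusted p = 5.02e-07). The elastic fibre protein FBLN5 fell from 2992 ± 253 to 2262 ± 149 (-0.40) and the proteoglycan FMOD from 368 ± 41.9 to 267 ± 23.6 (-0.46). Of 22 collagen chains, 1 was higher and 2 were lower against the mean. For these chains 7 were higher and 1 lower against NT3, and 2 higher and 4 lower against NT4. COL15A1 alone was called against each control and fell by 0.58 (879 ± 151 and 583 ± 79.5, adjusted p = 0.00228). COL1A1, a chain of the main fibrillar collagen, had 222868 ± 21029.5 in controls and 252709 ± 13353 after knockdown and did not pass. Among 19 contractile genes 2 were higher and 2 lower against the mean of controls. Here 6 were higher and 2 lower against NT3, and 0 higher and 4 lower against NT4. The 2 that fell against each control were ACTA2 (smooth muscle actin, 3189 ± 253 and 2323 ± 157, -0.45, adjusted p = 3.21e-05) and the tropomyosin TPM2 (-0.33).

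The stress and metabolic lists are read against the same shares of all genes, 8.63% higher and 7.71% lower against the mean of controls and 2.1% and 2.67% against each control. Of 32 p53 targets, 7 were higher and 2 lower against the mean. RRM2B (0.56) and the death receptor TNFRSF10B (0.34) rose against each control, and CDKN1A and CYFIP2 (-0.45) fell. Of 25 ATF4 amino acid genes, 7 were called against the mean of controls, all lower, and 3 fell against each control. The count depended on the control. Against NT3, 13 were lower and 0 higher (median -0.26), where 12.4% and 13.7% of all genes were. Against NT4, 4 were lower and 2 higher (median -0.055), where 6.05% and 5.79% were. ATF5, a stress transcription factor, had 575 to 828 in controls and 348, 350.4 and 377 after knockdown, without overlap, and fell by 0.84 ± 0.09 (adjusted p = 5.59e-07). The glutamine transporter SLC1A5 fell by 0.18 and ALDH18A1 of proline synthesis by 0.24. Of 35 lysosomal genes, 3 were higher and 2 lower against the mean. Against each control the membrane protein LAMP2 rose by 0.32, and the proteases CTSC and CTSK each fell by 0.43. In the interferon-stimulated list 1 of 41 genes was called against the mean of controls, and it was lower. The cholesterol and fatty acid list had 3 higher and 4 lower of 29 by the same rule. This balance differed between the controls, with 2 higher and 11 lower against NT3 and 6 higher and 0 lower against NT4. Against each control 0 of the list were called in one direction. Of 10 tested genes of MHC class I presentation, 2 were higher and 4 lower against the mean. NLRC5, the transactivator of the class, was the only member called against each control (413 ± 65.9 and 289 ± 12.5, -0.50, adjusted p = 0.00738), although its libraries overlapped. HLA-B and B2M were lower against the mean but not against NT4.

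In 2 lists the control library A95 stood apart. The median log2 difference of the 71 cytosolic ribosomal protein genes was 0.49 in A95 and -0.17 to 0.00 in the other 5 controls, beside -0.21, -0.21 and -0.07 with CDK4 siRNA. Against NT3, 23 of these genes were lower, and against NT4, 1 was, where 12.4% and 6.05% of all tested genes were. RPL4 was the only one called against each control (-0.26, adjusted p = 0.00219), where 2.67% of all tested genes were lower and 2.1% higher. Ribosomal protein genes have many processed copies among which reads may be divided. Oxidative phosphorylation showed the same layout, with 0.46 in A95 and -0.16 to -0.02 in the other 5 controls. Of its 57 tested genes COX6C (1044 ± 329.6 and 590.3 ± 58.3) and SDHC (1407 ± 72.6 and 1094 ± 108.2) fell against each control, where 2.67% of all tested genes did. Against the mean of controls, 7 ribosomal protein genes were called, all lower (7.71% of all genes were), with a median of -0.17. Single libraries moved this count: 29 were called without A107, 13 without A95 (12 lower and 1 higher, median -0.064), 12 without A101, 3 without A102, 2 without A108 or A97, 1 without A109, and 0 in the fit on the 9 libraries alone. The call of RPL4 against each control was lost without A102, A109 or A97 and in that fit, in which no oxidative phosphorylation gene was called against each control either. For oxidative phosphorylation 3 genes were called, all lower, with a median of -0.045. Without A107, 6 were called, and without A95, 5 were called (3 lower and 2 higher) with a median of 0.042, which is above 0.

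The second measure of CDK4 siRNA set the 3 libraries with both siRNAs against the 3 with CDK6 siRNA alone. There 703 genes were higher (6.17%) and 803 lower (7.05%). CDK4 had 889, 1015 and 946 with CDK6 siRNA and 115, 123 and 115 with both, a fall of 3.00 on the log2 scale. CDK6 had 760, 834 and 727 with CDK6 siRNA alone and 998, 930 and 975 with both, beside 4147 to 5689 in the controls. Its level was thus not equal in the 2 sets, which did not overlap. Whether that difference enters the other changes was not tested. Of the 239 genes that rose against each control, 86 rose again in this setting and 16 fell. Of the 304 that fell, 136 fell again and 2 rose. The 222 genes shared in direction were 40.9% of the 543 and 14.7% of the 1506 called with CDK6 silenced. Without A95 the shared genes numbered 471, and the calls with CDK6 silenced 2865, although that library enters this comparison only through the shared variance. Without the CDK6 siRNA library A98 those calls numbered 939. Several genes with large changes moved the same way in this setting. TMEM132A (-1.33), SV2A (-1.65), MXRA8 (-1.07), TOMM70 (-0.85) and CEMIP (-0.77) fell on the log2 scale, and IL6R (0.93), AMMECR1 (0.88), HMGA2 (0.63), ADAMTS2 (0.72) and TXNIP (0.49) rose. HMGA2 and ADAMTS2 stood outside the ranking of rises. CDKN1A fell by 0.44 (adjusted p = 2.30e-06), from 23532 to 24235 with CDK6 siRNA to 17118 to 18429 with both. All these genes had non-overlapping values in that comparison too. Other ranked genes did not repeat: KIF20A and CEP55 fell here after rising, and EREG, MFHAS1 and FAM234B did not pass, with values given below. Unlike CDKN1A, CCND2 overlapped here, with 5471, 5119 and 4912 with CDK6 siRNA and 4287, 4707 and 4920 with both. CDK4 siRNA lowered CCND2, E2F4, UNG and SDHC less in this setting, by the interaction values given below. The siRNA against CDK4 is the same by name in both settings, and no sequence was in the sources used here. Effects of the reagent on other transcripts and effects of losing CDK4 therefore cannot be told apart.

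The mitotic genes went the opposite way once CDK6 was silenced. Of the 65 tested members 58 were called when CDK4 siRNA was added to CDK6 siRNA, all lower (7.05% of all genes were), with a median log2 fold change of -1.25, beside 0.0038 over all genes. KIF20A had 262, 244 and 181 with CDK6 siRNA alone and 69.1, 82.8 and 52.4 with both, and fell by 1.74 ± 0.14 (adjusted p = 1.40e-08), after rising by 0.74 where CDK6 was intact. The list median from the control mean was -1.03 to -0.59 in libraries with CDK6 siRNA alone, -2.20 to -1.84 with both, and 0.27 to 0.41 with CDK4 siRNA alone. The difference between the 2 effects of CDK4 siRNA was tested as an interaction and was called for 742 of all genes (6.51%), for 56 of the 65 mitotic genes and for 157 of the 543. With 1 library left out, the interaction count rose to 1448 without A95 and 1197 without A107, and fell to 446 without A109, 449 without A97, 449 without A98, 477 without A105 and 493 without A99. S phase genes had 27 of 66 called in this setting, all lower (median -0.31), and interferon-stimulated genes 24 of 41 lower and 1 higher (median -0.62), beside 7.05% lower and 6.17% higher over all genes. FOXM1, which did not pass after CDK4 siRNA alone, fell by 1.74 when CDK6 was silenced too. CDKN2B behaved in the other direction: its counts were 134 to 163 with CDK6 siRNA and 259.9 to 301 with both, a rise of 0.89 (adjusted p = 1.67e-06), beside the difference of -0.01 without CDK6 siRNA. EREG and MFHAS1, which rose after CDK4 siRNA alone, had log2 differences of -0.29 (adjusted p = 0.212) and 0.00 (adjusted p = 0.989) here, and FAM234B, which had fallen by 1.10, one of -0.18 (adjusted p = 0.488).

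**Figure D4:**
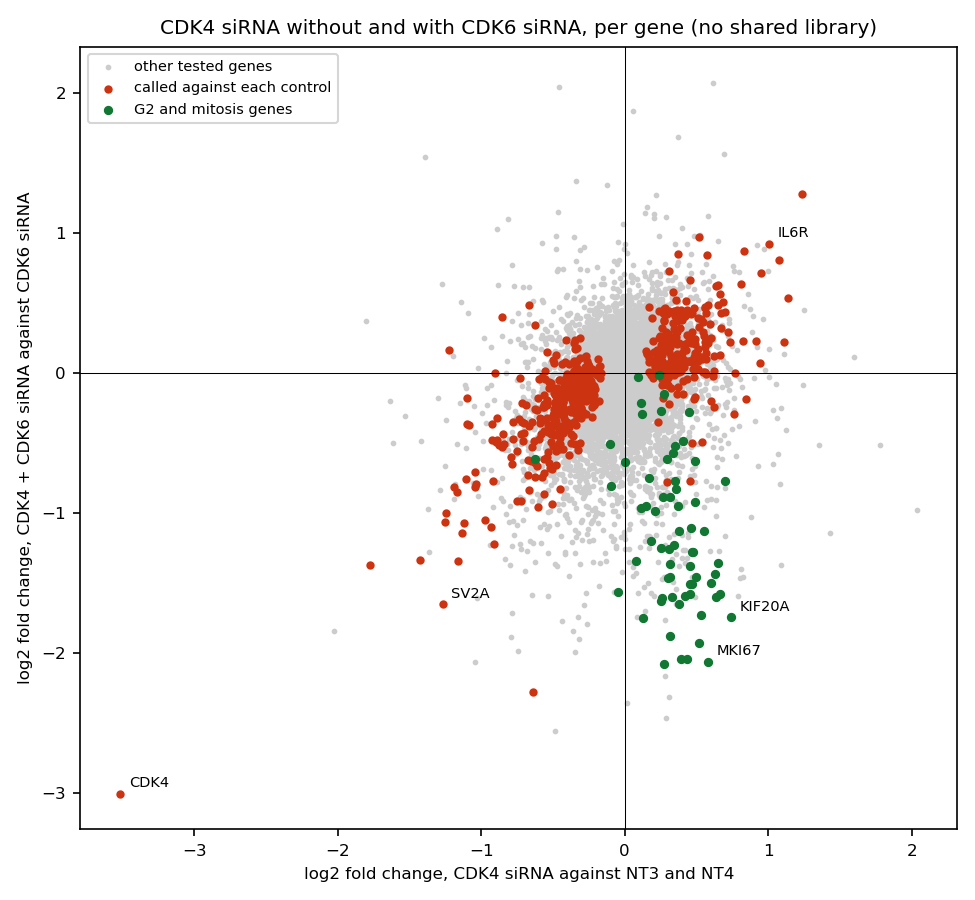
Log2 fold change of each tested gene for CDK4 siRNA against NT3 and NT4 (x axis) and for CDK4 plus CDK6 siRNA against CDK6 siRNA alone (y axis). The 2 axes share no library. Red points are genes called against each control other than mitotic genes, and green points are the 65 G2 and mitosis genes. Of these 65, 61 lie right of 0, whether called or not, and 58 were called lower in the comparison of the y axis.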

How the data were processed

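The authors deposited 1 table with a value for every gene in every library, and its column headers call these counts. In each library 100% of values were whole multiples of 1 step (within 0.01 of a whole number), so the values are a signal that the authors made by dividing read counts by 1 size factor per library. The submitters' processing notes name Trimmomatic 0.38.1, HISAT2 2.2.1, featureCounts 2.0.3, FastQC 0.74, MultiQC, DESeq2 2.11.40.8 and the builds hg38 and GRCh38, without roles or order. How reads of overlapping or similar genes were assigned, and whether strand was used, is not given in the sources used here. Gene positions are those of RefSeq for GRCh38.p14. Of the listed genes, none is mitochondrial.

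Values were fitted as log2(value + 1) with limma 3.58.1 in R 4.3.3, using 1 mean per group over all 21 libraries (7 groups of 3) and a trended empirical Bayes variance. The control effect was the equally weighted mean of NT3 and NT4, and each control alone. Fold changes on this scale understate the change of low genes. The labels do not say that replicates were separate cultures, so p-values measure the spread between these libraries, which may be technical. Libraries are named by the number in their column header, since the headers give a group and a number that matches no label.

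Gene lists numbered 23, with 707 of 719 entries in the table. The comparison, its genes and the lists were chosen with earlier results of these data known. Genes named were the cyclin, CDK and inhibitor panel, the 10 largest rises and 10 largest falls against the nearer control among genes called against each control, without overlap and with a mean of at least 100 in the higher arm, up to 4 called members per list, and the 4 largest opposite calls. Other members of lists, neighbours (TSPAN31) and CD68 were named after their values were seen. Alternatives were edgeR 4.0.16 and DESeq2 1.42.0 on the recovered reads, pseudocounts of 0.1 and 10, filters, centring, quantile normalisation, fits on the compared groups alone, fits without each library, and a fit with runs of header numbers as a block. The limma fit was tested on simulated data. One result for a single gene is not reported here.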

Additional observations from a re-analysis of the deposited data

Results flagged for a closer look

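For 31 of the genes named here the effect of CDK4 siRNA with CDK6 siRNA differed from its effect without it, by the interaction term of the limma fit over all 11394 genes (adjusted p from 2.51e-08 for KIF20A to 0.0449 for AAR2). Values below are the log2 effect with CDK6 siRNA minus that without it, and 6.51% of all tested genes were called by the same test.

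The difference was negative for KIF20A (-2.48), CEP55 (-2.24), TTK (-2.01) and CENPI (-1.47) of the G2 and mitosis list, and for RRM2 (-2.004) and FANCI (-0.79) of the S phase list. It was also negative for LAMA2 (-1.21), EREG (-1.05), MFHAS1 (-0.76), RRM2B (-0.55), LBR (-0.51), CANX (-0.32), LAMP2 (-0.24) and TPM4 (-0.23). The control values of LAMA2 lay far apart between NT3 and NT4, so its value depends on how the controls are combined.

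The difference was positive for the INK4 genes CDKN2B (0.89) and CDKN2A (0.67), for CDK4 itself (0.51), for CCND2 (0.29), E2F4 (0.40) and UNG (0.37), and for the biosynthetic genes PSAT1 (0.83), MVK (0.60) and DHCR7 (0.56). CDK4 had counts of 889 to 1015 with CDK6 siRNA alone, below the 1158 to 1356 of the controls.

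It was positive too for ANKRD1 (1.08), FAM234B (0.93), IGFBP3 (0.50), FBLN5 (0.38), SDHC (0.36), AAR2 (0.35), GOLM1 (0.34) and TOMM70 (0.32). The control values of ANKRD1 and IGFBP3 lay far apart between NT3 and NT4, so their values too depend on how the controls are combined. In TOMM70, GOLM1 and AAR2 CDK4 siRNA lowered the gene in both settings, by less where CDK6 was silenced.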

How the results depend on the processing

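The table's columns carry no replicate number of the labels. Their header numbers form 3 runs with 1 library of each siRNA group, which no source explains. Libraries of 1 run in different groups had correlations of their deviations from -0.133 to 0.099 (45 pairs, 0 above 0.1). Pairs from different runs and groups had -0.175 to 0.186. The runs were not taken as pairs, although these ranges do not show that the runs are no replicate block. In a fit on the 18 irradiated libraries, added after seeing the data, the run as a replicate block gave 1673 genes against the mean of controls, 473 against each control, 1327 with CDK6 silenced, 551 for the interaction and 197 shared, and the same fit without the block 1621, 458, 1308, 565 and 190.

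Against the mean of controls 1862 genes were called, against 798 in a fit on the 9 libraries alone, 923 with NT3 and NT4 as 1 group of 6, 2969 with NT3 alone, and 1067 (without A97) to 2712 (without A95) when 1 library was left out. The 543 calls against each control became 201 in the fit on the 9 libraries, of which 195 were among the 543, and 310 (without A97) to 926 (without A95). The 1506 calls with CDK6 silenced became 2450 in a fit on the groups compared and 939 (without A98) to 2865 (without A95), a library that enters that comparison through the shared variance only. The interaction called 742 genes, 395 in a fit on the groups compared and 446 (without A109) to 1448 (without A95). The 222 calls shared between both settings became 163 (without A97) to 471 (without A95). Counts by edgeR (1941, 580, 1522, 776 and 225, in the order above) and DESeq2 (2094, 656, 1748, 991 and 268) stayed within 1.5 times.

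Of 2422 values of named genes under alternatives, 2186 stayed on their side of the threshold, 214 lost the call, 13 gained one and 9 reversed. A reversal was counted only where the value passed the test in 1 of the 2 fits. With both controls in use, the uncalled values of ANKRD1 (-0.070 to 0.054), NPTX1 (-0.083 to 0.053), CCND3 (-0.021 to 0.054) and CDKN2B (-0.064 to 0.073) crossed 0. The counted reversals arose with 1 control used alone: NPTX1 (0.87 against NT3) and, against NT4, TP53INP1 (-0.22), COL18A1 (-0.22), LOX (-0.012), CCN2 (0.19), CANX (-0.11), LAMA2 (-0.92), ANKRD1 (1.09) and IGFBP3 (0.61). Of 1403 list counts and medians under alternatives, 220 moved, where a count moves when it changes by more than 1.5 times. The precision is limited by 3 libraries a group and by the distance between the controls.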
